A study of Mus musculus with 12 samples.

Results

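The genes of the mitochondrial respiratory chain and ATP synthase were examined in livers of mice with an inducible human alpha1-antitrypsin transgene. Members were all genes whose symbol in the platform annotation begins with Nduf, Uqcr, Cox4 to Cox8 or Atp5, together with Sdha, Sdhb, Sdhc, Sdhd, Cyc1 and Cycs. The rule used names and no measured value, and it found 86 genes on 160 probe sets among 12393 genes with a probe set of their own. A further 9 symbols of the rule stood only on probe sets shared with other symbols and were left out. Sorted by symbol, 34 of the 86 were counted with complex I, Ndufa4 among them, and 5 were complex I assembly factors. There were 4 subunits of complex II, 9 of complex III, 1 cytochrome c, 16 of complex IV and 17 of ATP synthase. Each gene was represented by its probe set of highest mean log2 signal over the arrays, and 46 genes had others, which served as a check.

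The arrays, 12 of a one-colour Affymetrix mouse design, each held liver RNA of a male mouse aged 6 weeks. M mice carried the wild-type human form and Z mice the mutant Z form, known to misfold and to accumulate inside the endoplasmic reticulum. The transgene was expressed in hepatocytes and silenced by doxycycline. The M off and Z off groups drank doxycycline at 40 µg/mL from conception, the M on and Z on groups drank none, and each of the 4 groups held 3 arrays that the labels call biological replicates. Expression of the transgene and absence of doxycycline cannot be told apart in this design, nor can the Z form and the line that carries it. Values are linear probe set signals as deposited, given to 1 decimal, and differences were taken on the log2 scale. Signals of different probe sets are not compared with each other.

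The respiratory chain lies in the inner mitochondrial membrane. Complex I takes electrons from NADH and complex II from succinate, both pass them through coenzyme Q to complex III, and cytochrome c carries them on to complex IV, which reduces oxygen. Complexes I, III and IV pump protons, and ATP synthase lets the protons flow back to make ATP. The subunits measured here are encoded in the nucleus and imported into mitochondria. Many of their genes are known targets of the nuclear respiratory factors NRF1 and NRF2 (GABP), which act with coactivators of the PGC-1 family. Hepatocytes are rich in mitochondria, and some complex IV subunits have one isoform for liver and most tissues and another for heart and skeletal muscle.

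The promoters of the members held motifs of these factors in a larger share than promoters in general. RefSeq promoters (mouse build GRCm38.p6, 250 bases before to 50 after the start) were matched for 71 of the 86 genes. The NRF1 motif, GCGCA and GCGC with any 1 base between them, was searched like the others on both strands and lay in 15 of 71 (21.1%), against 4.78% of all 27025 promoters. The ETS motif CCGGAAG, which GABP recognises, lay in 17 of 71 (23.9%) against 9.12%, and AANATGGC, a core bound by YY1, in 14 (19.7%) against 6.23%. The GC box GGGCGG lay in 45.1% against 35.9% and TATAAA in 9.86% against 14.2%. The median GC content was 59.0% in the members and 52.7% in all promoters, and no test was made of these shares. The 150 bases before the start are shown for Ndufs5 and Sdhd, whose values are described at length here, and for Cox6a1 and Cox7a1, which belong to the liver and the muscle isoforms of complex IV. Capitals mark the NRF1 motif, and each sequence runs 5′ to 3′ on the strand of its gene. The windows are chr4:123718187-123718336 (minus strand) for Ndufs5, chr9:50603850-50603999 (minus strand) for Sdhd, chr5:115348959-115349108 (minus strand) for Cox6a1 and chr7:30184021-30184170 (plus strand) for Cox7a1.
Ndufs5: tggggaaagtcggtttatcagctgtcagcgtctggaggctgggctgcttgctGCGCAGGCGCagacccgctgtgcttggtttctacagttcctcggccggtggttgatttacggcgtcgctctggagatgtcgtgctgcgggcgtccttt
Sdhd: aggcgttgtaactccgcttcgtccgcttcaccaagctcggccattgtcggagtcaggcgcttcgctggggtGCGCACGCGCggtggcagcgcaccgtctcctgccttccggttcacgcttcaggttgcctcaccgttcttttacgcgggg
Cox6a1: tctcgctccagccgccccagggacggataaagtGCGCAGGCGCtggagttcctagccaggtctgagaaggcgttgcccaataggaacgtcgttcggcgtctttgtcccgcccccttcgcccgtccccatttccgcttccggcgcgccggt
Cox7a1: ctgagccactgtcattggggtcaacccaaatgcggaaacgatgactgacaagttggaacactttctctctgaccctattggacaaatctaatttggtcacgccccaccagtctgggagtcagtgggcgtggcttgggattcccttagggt
The motif began 98 bases before the start in Ndufs5, 79 in Sdhd and 117 in Cox6a1, and the window of Cox7a1 held none. The promoters of Cox7a2 and Cox8a, also liver isoforms, and of the muscle isoform Cox8b held 0, so the motif did not part the isoforms by tissue. These matches describe the sequence and say nothing of binding in these livers.

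Of the 86 probe sets used, 81 had a mean above the median of all probe sets (5.27 on the log2 scale). Since the rule took the highest probe set of each gene, this is a description of the choice and no finding. The 5 below it were Cox4i2, Cox6b2, Cox7a1, Cox7c and Cox8b. All 7 hepatocyte markers examined had mean levels between 11.5 and 14.4 on the log2 scale. The arrays had trimmed means between 150.07 and 150.08 and medians from 38.8 to 47.2 signal units. The 3′ to 5′ signal ratio of the actin control probe sets, a sign of RNA quality, was 2.18 to 2.53 in Z off, 2.44 to 5.16 in Z on and 2.72 to 4.38 in the M groups. Skeletal muscle markers (10 of 10 measured) averaged 42.0, 17.6 and 68.9 signal units in M off and 12.2 to 26.1 on the other arrays, and none was at 0. Alas2, the erythroid enzyme of heme synthesis, was 1456.1, 1259.1 and 1118.8 in Z off and 136.5 to 306.6 on the other arrays. It was the only gene of the cell marker lists called in any of the 7 comparisons. The 4 erythroid markers measured did not move together. In Z on against Z off 2 lay above 0 and 2 below, and in Z off against M off 3 lay above 0 and 1 below. Of the brown fat markers (3 of 4 measured), Ucp1 and Cidea read 1.0 to 22.0 on every array. Elovl3, which liver also makes, read 2698.6, 3953.0 and 3518.7 in Z off and 373.5 to 2241.5 on the other arrays, without a call. In whole liver, fewer cells of a type and less RNA per cell cannot be told apart.

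No respiratory chain gene passed the test when the Z form was on. In Z on against Z off, 0 of 86 members were called by limma (adjusted p under 0.05 over 22626 probe sets, 3 of which, or 0.0133%, were called), with a smallest adjusted p of 0.533. The median difference of the members was -0.017 on the log2 scale, beside -0.033 over all probe sets, and 38 members lay above 0 and 48 below, while 47% of all probe sets lay above 0. The median was -0.021 in complex I, 0.202 in its assembly factors, 0.174 in complex II, -0.070 in complex III, 0.037 in complex IV and -0.046 in ATP synthase. Of the 4 members of complex II 3 lay above 0, of the 9 of complex III 8 lay below, and of the 17 of ATP synthase 13 lay below. At an unadjusted p under 0.05 there was 1 member, Ndufs5, while 6.29% of all probe sets were under that limit. The groups did not overlap for 12 members, 4 higher in Z on and 8 lower. Over all probe sets the share was 11.8%, with 5.22% higher and 6.61% lower.

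**Figure D1:**
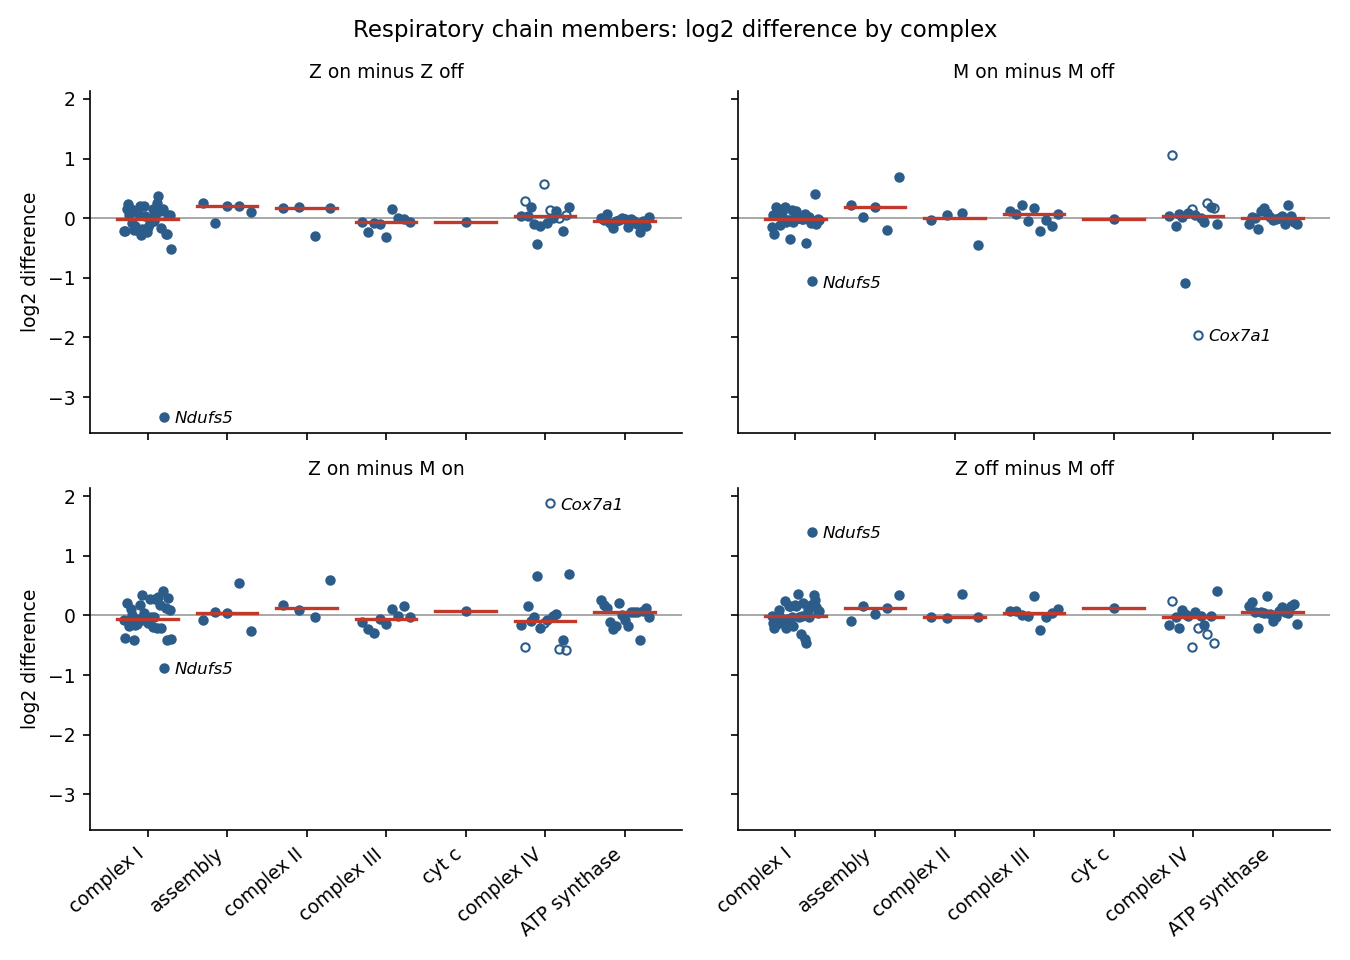
Log2 difference of each of the 86 members (vertical axis) by complex (horizontal axis) in the 4 comparisons of groups. Filled points are members above the median level of all probe sets, open points those below, and red lines the median of each complex; the complex medians lie near 0, Ndufs5 lies lowest in Z on minus Z off at -3.34, and no member passed the test in any panel.

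The M form gave no call either. In M on against M off, limma called 0 of 86 members and 0% of all 22626 probe sets, and the smallest adjusted p of a member was 0.710. The median difference was 0.009, beside -0.008 over all probe sets, with 45 members above 0 and 41 below, and 48.9% of all probe sets above 0. The median was -0.017 in complex I, 0.185 in its assembly factors, 0.009 in complex II, 0.063 in complex III, 0.044 in complex IV and -0.0011 in ATP synthase. Unadjusted, 2 members lay under 0.05, Ndufaf7 and Cox7a1, against 5.18% of all probe sets. The groups did not overlap for 6 members, 2 higher in M on and 4 lower. Over all probe sets the share was 10.5%, with 5.23% higher and 5.32% lower. The difference between the Z and the M response was tested as an interaction. It was called by limma for 0 members and 0% of all probe sets, with a median of -0.017 over the members, a smallest adjusted p of 0.933 and 0 members at an unadjusted p under 0.05, against 5.18% of all. Of the members 40 lay above 0 and 46 below, with 48.5% of all probe sets above 0.

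The lines were then compared within each state. In Z on against M on, limma called 0 members (0.00884% of all probe sets), the median difference was -0.032 with 37 members above 0 (50.3% of all probe sets), and 5 members had an unadjusted p under 0.05, against 6.85% of all. Those were Sdhd, Ndufaf5, Ndufa10, Cox8a and Cox7a1. The groups did not overlap for 15 members, 6 higher in Z on and 9 lower. Over all probe sets the share was 12.1%, with 6.07% higher and 6.02% lower. In Z off against M off, limma called 0 members (0.0707% of all), the median was 0.022 with 46 members above 0 (52.8% of all probe sets), and Ndufb5 alone lay under 0.05 unadjusted, against 7.73% of all. Here the groups did not overlap for 16 members, 11 higher in Z off and 5 lower. Over all probe sets the share was 15.1%, with 8.36% higher and 6.76% lower.

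Averages over states and over lines were tested in the same fit. Z minus M, averaged over both states, called 0 members (0.0884% of all), with a median of 0.0045 and 44 members above 0 (52.1% of all probe sets). It had 3 members under 0.05 unadjusted, Ndufb5, Atp5g2 and Ndufaf5, against 9.09% of all. On minus off, averaged over both lines, called 0 members (0.00884% of all), with a median of -0.0097 and 34 members above 0 (47.4% of all probe sets). It had 2 members under 0.05 unadjusted, Ndufs5 and Ndufaf7, against 5.84% of all. All these comparisons share arrays with one another, so each is given by its own values.

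**Figure D2:**
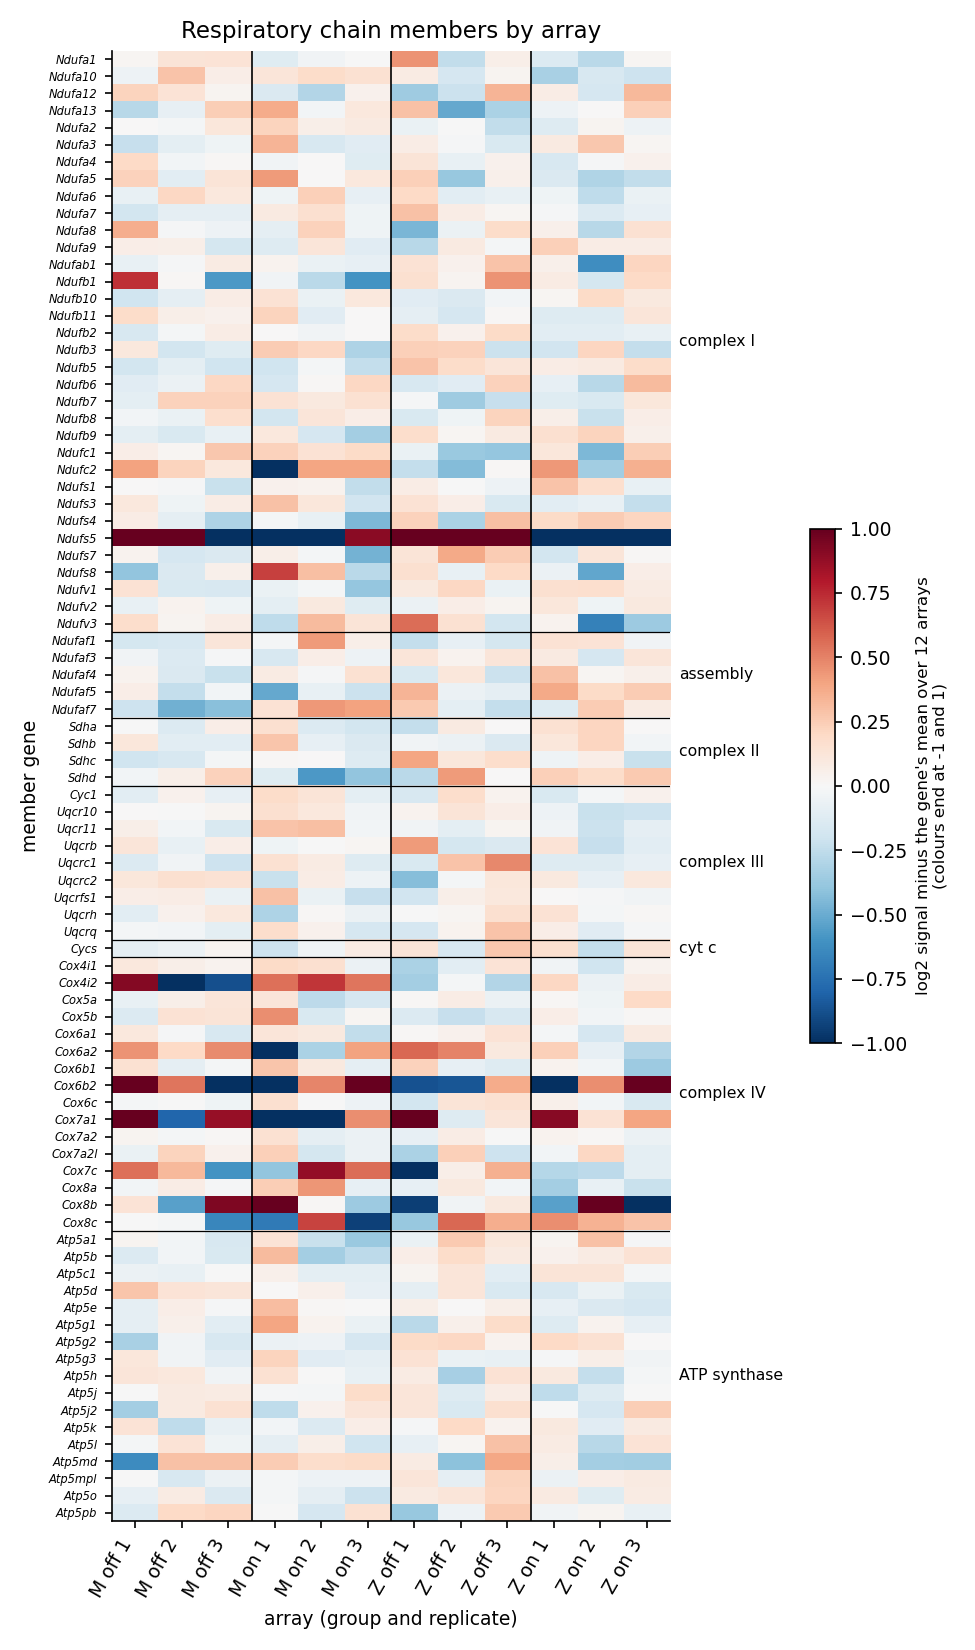
Log2 signal of each member minus its mean over the 12 arrays (colour, from blue below to red above, ending at -1 and 1), with 1 row per gene ordered by complex and 1 column per array, in groups of 3. Ndufs5 and the dim complex IV genes carry the strongest colours, and no complex is coloured as a block in any group.

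Among complex I subunits, Ndufs5 had the largest difference in every comparison except Z minus M over both states, where Ndufb5 (0.31) and Ndufc1 (-0.31) lay farther from 0 than its 0.26. It is an accessory subunit on the intermembrane space side of the complex. Its probe set gave 1336.2, 929.2 and 1056.1 for Z off, then 97.7, 129.0 and 101.0 for Z on. It read 658.7, 750.4 and 144.5 in M off and 147.6, 91.3 and 587.5 in M on. Every Z off array was above every other array, every Z on array was low, and each M group held both high and low arrays. The mean was 1107 ± 208 in Z off and 109 ± 17.2 in Z on (SD, n = 3), and 518 ± 327 in M off and 275.5 ± 272 in M on (SD, n = 3). Z on minus Z off was -3.34 (SE 0.73) with an adjusted p of 0.533 in limma, M on minus M off was -1.06 (SE 0.73), and on minus off over both lines was -2.20 (SE 0.52) with an adjusted p of 0.422. The M difference ranged from -1.84 without M on 3 to -0.49 without M on 2, and it also moved by over 1.5 times without M off 2 or M off 3. Z off was also the group of the highest Alas2 and Elovl3, and 2 of its arrays had the lowest actin 3′ to 5′ ratios, and the part of these in the Ndufs5 values was not tested.

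A second probe set, annotated to Ndufs5 and to its pseudogene, did not share this pattern. It read 740.6, 730.8 and 944.1 in Z off and 810.6, 948.3 and 779.3 in Z on. In M off it read 920.6, 648.1 and 972.3, and in M on 882.1, 1118.9 and 813.0. All groups overlapped, and across the 12 arrays its log2 signal had r = -0.48 with the first probe set. The genes next to Ndufs5 on chromosome 4 that had a probe set (Macf1, Pabpc4, Heyl, Akirin1, Mycbp and Rragc) had r between -0.37 and 0.14 with it over the 12 arrays. The probe sets of other genes whose pattern was most like that of Ndufs5 were those of Gclc (r = 0.90) and Prkx (r = 0.86), and the most opposite were those of Seh1l (r = -0.93) and Cxcl1 (r = -0.91). These were picked from all genes by their likeness and share the libraries with it.

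**Figure D3:**
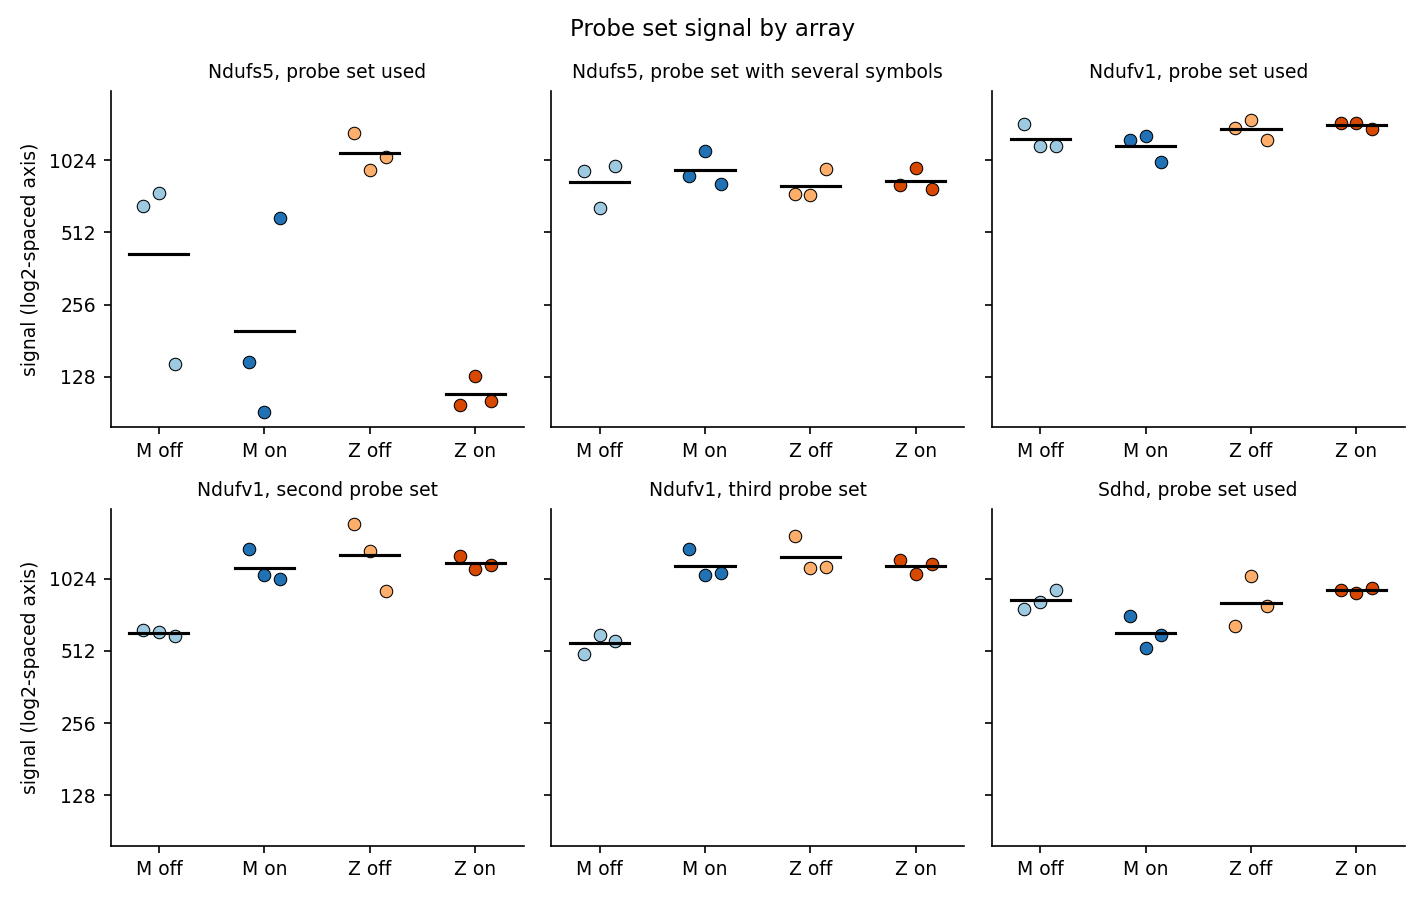
Signal (vertical axis, log2-spaced) of 6 probe sets by group (horizontal axis), with 1 point per array and a bar at the group's mean on the log2 scale. The used Ndufs5 probe set is high in Z off and low in Z on while its other probe set is level, 2 of 3 Ndufv1 probe sets are low in M off alone, and Sdhd is lower in M on than in Z on.

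Ndufv1, the subunit that binds NADH and the flavin cofactor, had probe sets that disagreed. The one used by the rule read 1445.4, 1176.4 and 1174.1 in M off, 1247.5, 1294.6 and 1004.2 in M on, 1400.5, 1511.0 and 1248.8 in Z off and 1460.1, 1467.9 and 1388.3 in Z on. Z on lay above M on without overlap, and the other groups that differ in 1 factor overlapped. The third probe set read 496.9, 597.5 and 563.6 in M off and 1059.5 to 1539.6 on the other 9 arrays. The second read 628.1, 616.9 and 588.7 in M off and 909.0 to 1729.2 on the other 9. In both, every M off array was below every other array. For the third probe set Z off minus M off was 1.20 (SE 0.19) with an adjusted p of 0.0839 in limma, and M on minus M off was 1.08 with an adjusted p of 0.275. For the second these were 1.07 (adjusted p = 0.294) and 0.90 (adjusted p = 0.659). For the probe set used they were 0.13 and -0.10. M off 1 and M off 3 were also the arrays of the highest muscle marker means, which M off 2 was not, and the part of muscle RNA in these values was not tested.

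Ndufb5, an accessory subunit of the membrane arm, read 1137.9, 1207.8 and 1123.4 in M off and 1121.9, 1276.0 and 1094.8 in M on. In Z off it read 1572.8, 1462.9 and 1405.5, and in Z on 1359.7, 1377.4 and 1465.7. All 6 Z arrays were above all 6 M arrays. Z minus M over both states was 0.31 (SE 0.10) with an adjusted p of 0.400 in limma, and its second probe set gave 0.15 with overlapping groups. Ndufa10, also an accessory subunit, read 983.9, 1106.5 and 1067.5 in Z on and 1339.5, 1402.5 and 1368.7 in M on, which did not overlap. Its difference Z on minus M on was -0.38 (adjusted p = 0.710).

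For Ndufc2, Ndufs8 and Ndufv3 the differences turned on single arrays. Ndufc2, of the membrane arm, read 687.8 in M on 1 and 1253.1 to 2283.3 on the other 11 arrays, while its second probe set read 926.0 in M on 1, its highest value. The Z on minus Z off difference of Ndufc2 was 0.37 and the interaction 0.78, which was 0.22 without M on 1. Ndufs8, which holds iron-sulfur clusters, ranged from 1705.3 to 3939.5, with M on 1 highest at 3939.5, and its M on minus M off difference was 0.40 (adjusted p = 1.00). It was 0.18 without M on 1, 0.65 without M on 3 and 0.07 as the mean of its probe sets. Of its 5 further probe sets, the M on minus M off differences lay between -0.10 and 0.33. Ndufv3 read 3039.8, 2293.6 and 1820.5 in Z off and 2117.9, 1292.9 and 1608.7 in Z on, overlapping groups with a difference of -0.51 (adjusted p = 0.804), which was -0.32 without Z off 1 and -0.34 without Z on 2. Ndufv2, a core subunit, stayed within a 1.18-fold range over all 12 arrays, and Ndufs1, the largest core subunit, within a 1.44-fold range.

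Ndufc1, Ndufb7, Ndufa5 and Ndufa13 are accessory subunits. Ndufc1 read 1361.5, 1314.7 and 1566.1 in M off, 1525.1, 1436.6 and 1487.6 in M on, 1238.9, 1003.2 and 992.4 in Z off, and 1408.2, 954.9 and 1542.4 in Z on. Z off lay below M off without overlap, while Z on spread across the M range and below it. Z off minus M off was -0.39 (SE 0.21, adjusted p = 0.702) and Z minus M over both states -0.31 (adjusted p = 0.595), and its second probe set gave 0.12 and 0.01. Without Z on 2 the latter difference of the probe set used was -0.20. Its Z on minus Z off difference of 0.25 was 0.11 without Z on 3 or 0.46 without Z on 2. Ndufb7 had -0.32 (adjusted p = 0.718) and -0.25 (adjusted p = 0.598) in the same comparisons between lines, with overlapping groups, and its second probe set gave 0.04 and -0.12.

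Ndufa5 read 767.7, 688.8 and 716.9 in Z on and 1140.6, 853.7 and 915.3 in M on without overlap. The difference was -0.41 (SE 0.21, adjusted p = 0.775), and its second probe set gave -0.29, also without overlap. Between the lines over both states it was -0.26 (adjusted p = 0.630). Ndufa13 ranged from 2857.1 to 5253.3, and its on minus off difference over both lines was 0.21 (adjusted p = 0.935), 0.33 without Z off 1 and 0.13 without Z off 2. Ndufa12, an accessory subunit whose probe sets disagreed, had M on minus M off differences of -0.26 on the probe set used, and of -0.78, 0.25 and 1.11 on the others. The 1.11 came from a dim probe set that read 3.1 to 26.5. On the probe set with -0.78, M on 1 and M on 2 read 912.5 and 848.6 and M on 3 read 1972.3, against 1879.9 to 2071.2 in M off.

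The 5 assembly factors of complex I help to build the complex and are not part of it. Ndufaf7, a methyltransferase that modifies a core subunit during assembly, read 66.7, 55.2 and 57.5 in M off and 85.2, 104.2 and 101.6 in M on. It read 92.1, 71.8 and 65.2 in Z off and 70.4, 92.0 and 81.3 in Z on. The M groups did not overlap and the Z groups did. M on minus M off was 0.70 (SE 0.20) with an unadjusted p of 0.00539 and an adjusted p of 0.710 in limma, and Z on minus Z off was 0.10 (SE 0.20). The interaction was -0.60 (adjusted p = 0.933). Ndufaf5 read 63.5, 55.8 and 58.2 in Z on and 34.3, 46.6 and 42.1 in M on, which did not overlap, a difference of 0.54 (adjusted p = 0.610). Ndufaf1 had on minus off differences of 0.25 in Z and 0.22 in M, with adjusted p of 0.871 and 1.00, and the latter was 0.09 without M on 2. Ndufaf4 had 0.20 and 0.19 in these comparisons, and its second probe set 0.17 and 0.23.

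Complex II is also the succinate dehydrogenase of the tricarboxylic acid cycle. Sdha, the flavoprotein that oxidises succinate, read 1987.4, 1813.1 and 2088.1 in M off, 2226.2, 1808.5 and 1750.8 in M on, 1687.3, 2121.1 and 1991.1 in Z off and 2210.6, 2313.0 and 1997.3 in Z on. All its groups overlapped. Sdhb, the iron-sulfur subunit, averaged 3339 ± 132 in Z off and 3793 ± 313 in Z on (SD, n = 3), a difference of 0.18 (SE 0.17). Sdhc and Sdhd anchor the enzyme in the membrane and bind coenzyme Q. Sdhc read 1202.6, 987.8 and 1032.8 in Z off, which were above all its other arrays (782.1 to 954.2). Its Z on minus Z off difference was -0.30 (adjusted p = 0.831), and its second probe set gave -0.82 (adjusted p = 0.671) with groups that did not overlap.

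Sdhd was lower in M on than in Z on without overlap. It read 719.5, 526.5 and 596.0 in M on, 767.8, 816.5 and 918.1 in M off, 648.8, 1053.0 and 785.7 in Z off and 923.5, 892.4 and 938.6 in Z on. The mean was 614 ± 97.8 in M on and 918 ± 23.6 in Z on (SD, n = 3). Z on minus M on was 0.59 (SE 0.21) with an adjusted p of 0.610 in limma, and M on minus M off was -0.45 (adjusted p = 0.974). Its second probe set gave 0.66 and -0.47 in these comparisons, both without overlap and neither called. The Z on minus Z off difference was 0.18.

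Complex III passes electrons from coenzyme Q to cytochrome c. On the probe sets used, all 9 members stayed within a 2-fold range over the 12 arrays, with a median range of 1.42-fold. Of all 86 members 72 did so, with a median range of 1.49-fold over the 86. Cyc1, its cytochrome c1, averaged 2285 ± 128 in M off, 2491 ± 249 in M on, 2401 ± 282 in Z off and 2299 ± 158 in Z on (SD, n = 3). Uqcr10, a small subunit, read 2123.7, 1886.2 and 1911.4 in Z on and 2146.2 to 2456.6 on the other 9 arrays, so Z on lay below every other array. Z on minus Z off was -0.24 (SE 0.14) with an adjusted p of 0.853. Its other probe sets gave 0.07 and 0.32, each with 1 high array (Z on 2). Uqcrc2, a core subunit, had on minus off differences of 0.15 in Z and -0.21 in M, and its second probe set gave 0.06 and 0.02. Uqcrb differed by -0.10 and -0.05.

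Cytochrome c itself (Cycs), the mobile carrier that also triggers apoptosis when released from mitochondria, did not stand apart in any group. It read 2443.3, 2504.4 and 2652.7 in M off, 2259.5, 2523.3 and 2762.0 in M on, 2855.5, 2325.6 and 3143.8 in Z off and 2911.8, 2203.5 and 2849.7 in Z on. All groups overlapped. Z on minus Z off was -0.06 with a 95% interval from -0.48 to 0.35.

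Complex IV has subunits with tissue isoforms. Cox6a1, Cox7a2 and Cox8a are the isoforms of liver and most tissues, and Cox6a2, Cox7a1 and Cox8b those of heart and skeletal muscle. The range over the 12 arrays was 1.30-fold for Cox6a1, 1.18-fold for Cox7a2 and 1.72-fold for Cox8a, and 6.98-fold for Cox6a2, 17.6-fold for Cox7a1 and 7.91-fold for Cox8b. The muscle isoforms read low, and members at low signal spread more: the median SD between arrays of a group was 1.00 for the 5 members below the median of all probe sets and 0.157 for the 81 above it. The ranges of the isoforms are therefore not compared. Cox7a2 averaged 5508 ± 96.0 in M off, 5502 ± 504 in M on, 5472 ± 299 in Z off and 5465 ± 178 in Z on (SD, n = 3), and its Z on minus Z off interval ran from -0.33 to 0.33. Cox6a1 averaged 7135 ± 643, 7233 ± 992, 7555 ± 333 and 7083 ± 625 in the same order (SD, n = 3). Cox8a read 1095.8, 1313.7 and 1189.1 in Z on and 1639.8, 1883.9 and 1310.4 in M on. The groups overlapped by 1 array, the difference was -0.41 (adjusted p = 0.714), and its second probe set gave -0.07. Cox4i1, the form of most tissues, and Cox6b1 had differences between -0.21 and 0.08 in the 4 comparisons of groups. Ndufa4, long counted with complex I and now known in complex IV, differed by -0.11 to 0.01. By its symbol it stands with complex I in the counts and medians here. Cox5b, which binds zinc, read 5074.5, 4765.1 and 4904.1 in Z on and 4419.0, 4147.2 and 4345.8 in Z off without overlap, a difference of 0.19 (adjusted p = 0.907), and its 5 other probe sets gave from -0.17 to 0.10. Cox5a had Z on minus M on differences of 0.16 on the probe set used and of 0.30 and 0.02 on the others.

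**Figure D4:**
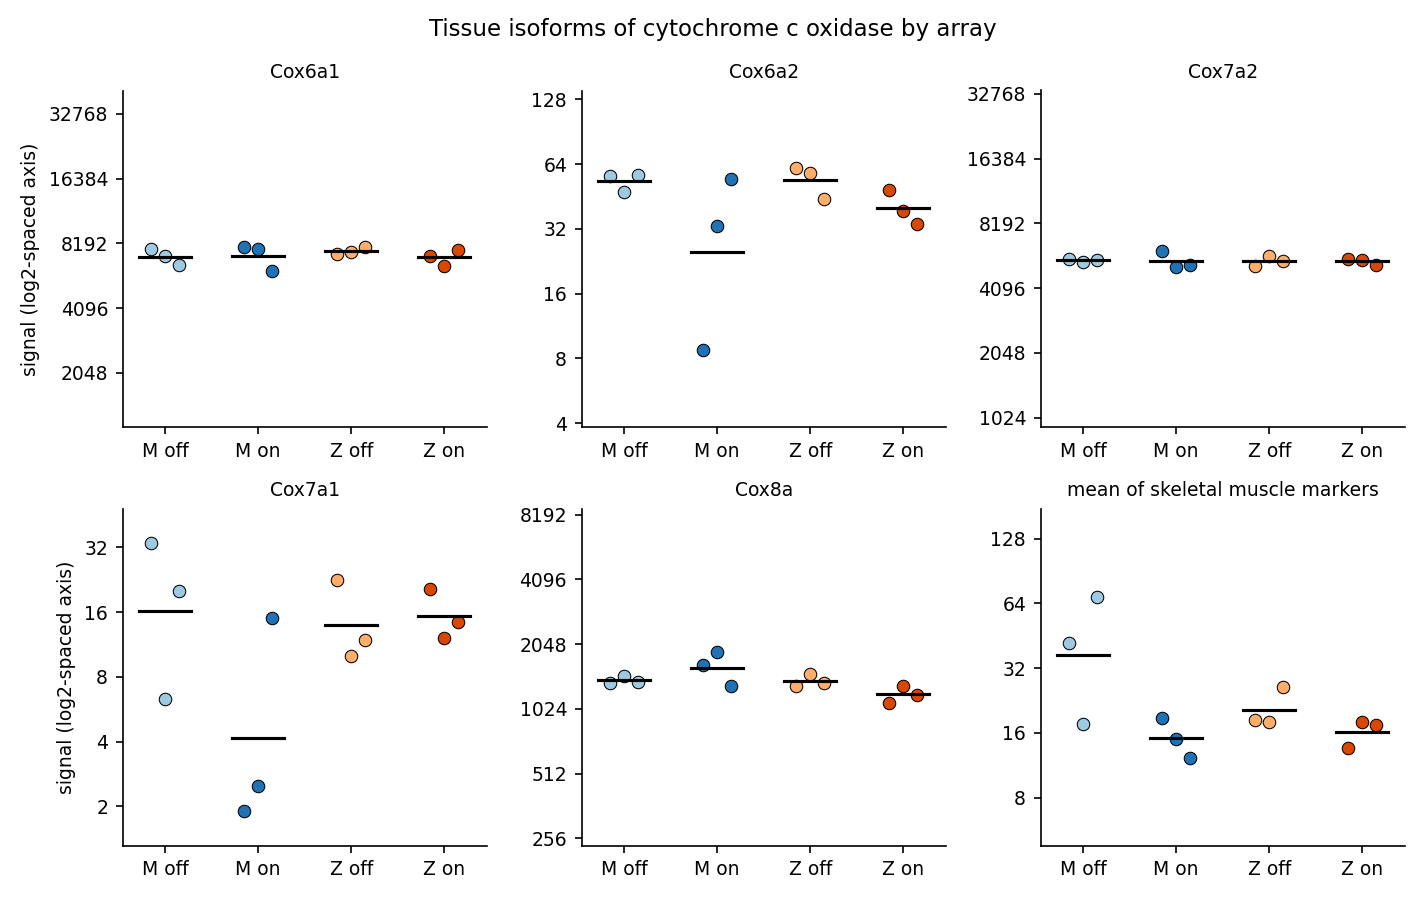
Signal (vertical axis, log2-spaced, each panel with the same number of doublings) of 5 complex IV subunit genes and the mean of the skeletal muscle markers by group (horizontal axis), with 1 point per array and a bar at the group's mean on the log2 scale. Cox6a1 and Cox7a2 stay within 1.30-fold and 1.18-fold ranges, and Cox6a2 and Cox7a1 read from 8.8 to 61.4 and from 1.9 to 33.4, where signals are low.

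Cox7a1 read 33.4, 6.3 and 20.0 in M off, 1.9, 2.5 and 15.1 in M on, 22.6, 10.0 and 11.9 in Z off and 20.5, 12.1 and 14.4 in Z on. M on 1 and M on 2 were the lowest and M off 1 the highest, and the groups overlapped. M on minus M off was -1.96 (SE 0.81) with an adjusted p of 0.942. At this low signal the size depended on the offset, being -0.65 with 16 and -0.30 with 50 added before log2. Cox6a2 read 56.2, 47.4 and 57.3 in M off and 8.8, 33.1 and 54.4 in M on, overlapping groups with a difference of -1.09 (adjusted p = 0.993). Without M on 1 it was -0.33 and without M on 3 it was -1.65, and with 16 or 50 added before log2 it was -0.66 or -0.37. The mean of the muscle markers was highest on M off 1 and M off 3, and that of M off 2 lay below M on 1. It read 42.0, 17.6 and 68.9 in M off against 18.9, 15.1 and 12.2 in M on. Of the 10 markers 7 were lower in M on and 3 higher. The part of muscle RNA in the Cox7a1 and Cox6a2 differences was not tested. Cox8b read 2.2 to 17.4 and Cox6b2, known from testis, 5.6 to 34.0, near the bottom of the scale. Cox8c, also known from testis, read 54.6 to 167.1, and its Z on minus M on difference was 0.69 (adjusted p = 0.818), 1.19 without M on 2 and 0.38 without M on 3. Cox4i2, the form of lung, read 38.3, 42.9 and 37.9 in M on and 30.3, 25.1 and 27.5 in Z on without overlap, a difference of -0.52 (adjusted p = 0.883). Cox7c had only dim probe sets here and read 14.9 to 58.3.

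Of the 17 ATP synthase genes 16 stayed within a 2-fold range over the 12 arrays, as did 72 of all 86 members. Atp5c1, the central stalk subunit that turns inside the catalytic head, read from 4245.4 to 4971.1, the narrowest range of all members at 1.17-fold. Atp5a1 and Atp5b, the catalytic head, ranged 1.58-fold each. Atp5g2, one of the genes for the ring subunit c, read 1350.9, 1362.4 and 1214.9 in Z off, 1357.4, 1316.9 and 1184.2 in Z on, while the 6 M arrays read 942.5 to 1157.1. All 6 Z arrays lay above all 6 M arrays. Z minus M over both states was 0.26 (SE 0.11) with an adjusted p of 0.522, and its second, dim probe set gave -1.77 (adjusted p = 0.425). Atp5md, a small accessory subunit of the membrane part, read 1006.5, 765.3 and 758.6 in Z on and 1091.1 to 1151.2 in M on, a difference of -0.42 (adjusted p = 0.858), and it was 624.6 in M off 1 against 1182.8 and 1184.7 on the other M off arrays. Of the 3 bright probe sets of Atp5k, the M on minus M off differences were 0.03, 0.17 and 0.26.

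The median SD between arrays of a group was 0.157 on the log2 scale for the 81 members above the median of all probe sets, beside 0.275 for the brighter 11313 probe sets. The median level of all 86 members was 10.7 on the log2 scale, while the brighter probe sets began at 5.27. These SDs were not taken at equal signal, so they cannot show that members vary less. The 95% interval of the difference lay within 1 log2 unit of 0 for 76 of 86 members in Z on against Z off, 74 in M on against M off, 73 in Z on against M on and 77 in Z off against M off. The median half-width of those intervals was 0.40. The intervals were narrower for the averages, where 79 members lay within that range for the lines and 80 for on against off, and wider for the interaction, with 68. These are intervals of single genes, not adjusted for the number tested.

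**Figure D5:**
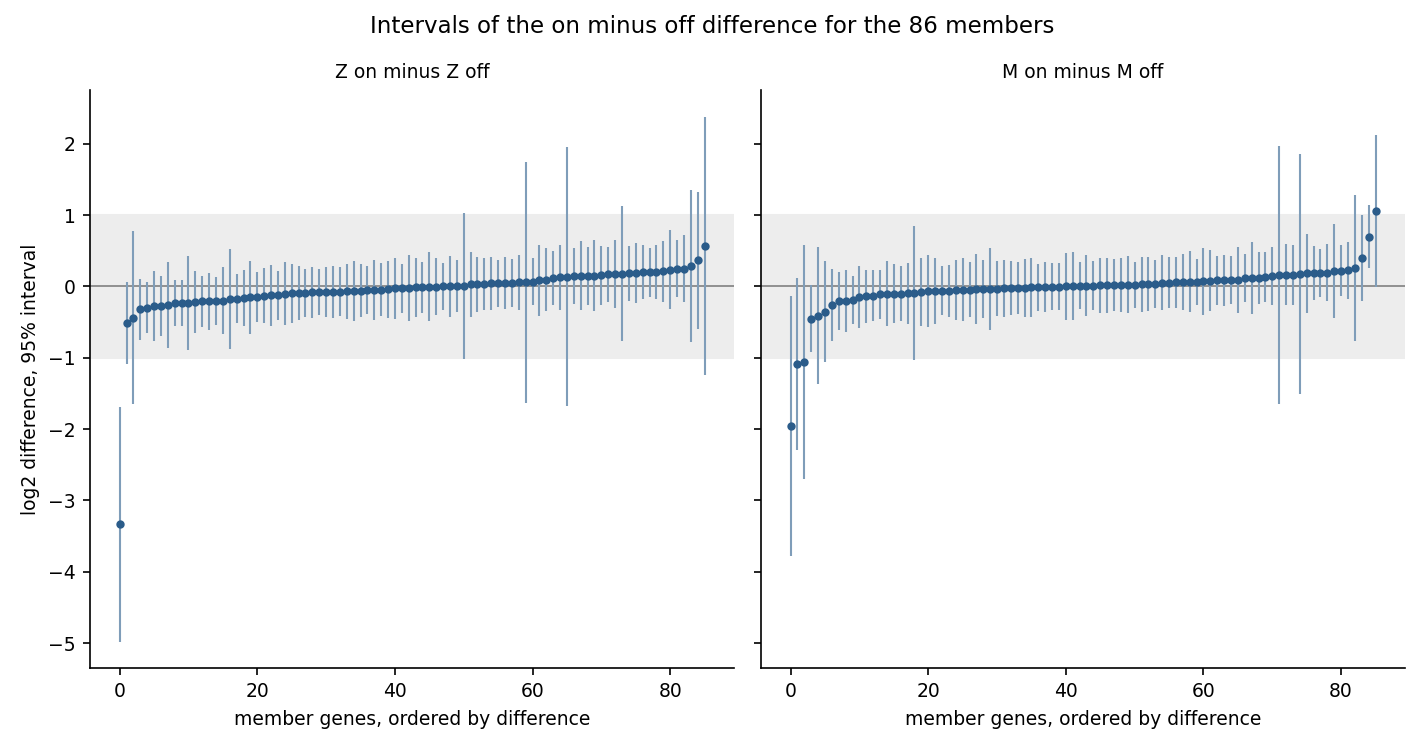
Log2 difference of each of the 86 members with its 95% interval (vertical axis), ordered by size (horizontal axis), in Z on minus Z off and M on minus M off. The grey band spans -1 to 1, and the intervals of 76 and 74 members lie inside it.

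The median level of the members moved little between arrays. The median deviation of all members from their own means ran from -0.060 (M on 3) to 0.062 (Z off 3) over the arrays. After removal of the group means, pairs of bright genes of the same complex had a median r of 0.081 over 12 arrays (804 pairs) and pairs from different complexes 0.053 (2436 pairs). The within-complex median was highest in complex III at 0.311 and lowest in complex I at 0.064. Probe sets of the same gene, both bright, had a median r of 0.238 over 62 pairs, with a range from -0.69 to 0.84. These r were taken on log2 signals with the group means kept, so they are not on the scale of the r between genes. With probe sets of 1 gene this far apart, low r between genes cannot show whether the genes vary together. The genes whose pattern over the 12 arrays was most like the mean of all members were Raly (r = 0.89), Zfp280c (0.84), Rps7 (0.83), Ttc39c (0.83) and Apoc2 (0.82). For the mean of the members above the median level they were Sco2 (0.83), Apex2 (0.83), Crnkl1 (0.83), Raly (0.82) and Eps15l1 (0.81). Both lists were picked from 6953 bright genes that share the same libraries. The means were taken on log2 signals without scaling, so members of wide spread, such as Ndufs5, weighed more in them.

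Regulators of mitochondrial biogenesis had no call. Their list also held factors that act on mitochondrial DNA, such as Tfam, while the members are encoded in the nucleus. Of the 19 genes listed 17 were measured, and limma called 0 of them in each of the 7 comparisons. In Z on against M on 13 of the 17 lay below 0, with a median of -0.166, beside 0.004 over all probe sets. For Z minus M over both states 14 of 17 lay below 0, with a median of -0.166, beside 0.018 over all probe sets. Ppargc1b, a coactivator of the PGC-1 family, read 221.9, 207.4 and 215.8 in M off and 81.5, 110.2 and 51.0 in Z off, which did not overlap, a difference of -1.48 (SE 0.43, adjusted p = 0.445). Ppargc1a, its relative, differed between the lines by -0.77 (adjusted p = 0.334). Pprc1, also of the family, read 42.3, 38.7 and 45.8 in M off and 93.3, 90.3 and 89.4 in M on, a difference of 1.11 (SE 0.35, adjusted p = 0.772). Nrf1 differed by -0.28 in Z on against Z off and by 0.04 in M on against M off, and Tfam, which packages and transcribes mitochondrial DNA, by 0.19 and -0.10.

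Assembly factors outside the name rule, 27 of 35 measured, also held 0 calls in the 7 comparisons. Acad9, which takes part in complex I assembly, read 198.7, 159.1 and 160.2 in M off and 67.9, 60.1 and 62.3 in Z off without overlap. The difference was -1.44 (SE 0.28) with an adjusted p of 0.192. In Z on against M on, 0 of the 27 genes, Acad9 among them, had an unadjusted p under 0.05 in limma. Sco2, a copper chaperone for complex IV, read 994.3, 591.0 and 1040.8 in Z off and 298.7, 283.3 and 473.0 in Z on without overlap, a difference of -1.31 (SE 0.35, adjusted p = 0.627). Further lists held 16 tricarboxylic acid cycle and pyruvate dehydrogenase genes, 14 carriers, pores and regulators of ATP export and coupling, and 74 mitochondrial ribosomal proteins measured. These held 0 calls in the 7 comparisons. The list of 14 includes Cox7a2l, which is also a complex IV member, with 0.13 in Z on against Z off and -0.16 in Z off against M off. In Z on against Z off 11 of the 16 cycle genes and 11 of those 14 lay above 0, with medians of 0.066 and 0.113, beside -0.033 over all probe sets. In Z off against M off 12 of those 14 lay below 0, with a median of -0.147, beside 0.031 over all probe sets. The mitochondrial ribosomal proteins had medians of -0.018 in Z on against Z off and 0.009 in M on against M off.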

How the data were processed

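RNA was purified from liver with TRIZOL and RNEasy columns, per the labels' protocols. The authors deposited linear intensities, 1 signal per probe set and array. RMA is named in the submitters' processing notes, yet these values are linear, with equal trimmed means and unequal medians, and how they were made is unknown here. Of 22690 probe sets, 64 controls were left out, and 1 value of 0 was set to 0.1 before log2. Groups came from the titles. The supplied platform annotation gave 20380 probe sets 1 symbol each, 691 several and 1555 none, and all 86 members matched RefSeq symbols.

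One fit covered all 12 arrays, with a mean for each group (limma 3.58.1 in R 4.3.3, lmFit and eBayes, two-sided, Benjamini and Hochberg adjustment over 22626 probe sets), and 7 contrasts were taken, with calls at an adjusted p under 0.05. The number of arrays limits the precision. The main fit did not pair arrays by the replicate numbers of their titles.

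Members, gene lists and tests were chosen with earlier results of these data known. Named members were any called, the 3 highest and 3 lowest in each contrast among those above the median level, complex II, cytochrome c, Cyc1, tissue isoforms, those whose probe sets disagreed most, and, of each further list, some of the genes with its 3 smallest p. Ndufa7, Ndufa10, Ndufv2, Ndufs1, Atp5b, Atp5g2, Cox7c, the neighbours of Ndufs5, Nrf1 and Tfam were chosen after their values were seen. Alternatives were other normalizations, variance models, filters, offsets and subsets of arrays.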

Additional observations from a re-analysis of the deposited data

Results flagged for a closer look

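Ndufa7, an accessory subunit of complex I, was looked at again because its arrays moved in opposite directions in the 2 lines. It read 2115.8, 1817.8 and 1754.4 in Z off and 1713.3, 1569.2 and 1636.4 in Z on, so that every Z on array was below every Z off array. It read 1521.0, 1627.5 and 1623.4 in M off and 1841.1, 1935.7 and 1675.4 in M on, so that every M on array was above every M off array. Over all probe sets the groups did not overlap for 11.8% in Z on against Z off and 10.5% in M on against M off. The share without overlap in opposite directions in both lines was not counted. The differences of Ndufa7 were -0.21 (SE 0.15) in Z and 0.19 (SE 0.15) in M. The difference between them was -0.40 (SE 0.22) with an unadjusted p of 0.0964 and an adjusted p of 0.933 in limma, so the test of the difference itself did not pass. Its 4 further probe sets gave differences between the responses of -0.39, -0.07, -0.28 and -0.11. Groups of 3 arrays were not tested for single outlying arrays.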

How the results depend on the processing

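No member was called in any of the 7 comparisons under any alternative run, the smallest adjusted p of a member being 0.0854 (Z minus M over both states with 50 added before log2). The median difference of the members moved by more than 0.040, its SD between arrays of a group, only with each array centred on its median, to 0.029 in Z on against Z off, 0.026 in the interaction and -0.036 in Z off against M off. With 1 array left out, the medians ranged from -0.042 to 0.0091 in Z on against Z off, from -0.0080 to 0.045 in M on against M off, from -0.044 to 0.0098 in the interaction, from -0.047 to -0.0045 in Z on against M on, from 0.0082 to 0.050 in Z off against M off, from -0.015 to 0.024 for the lines and from -0.033 to 0.0084 for on against off, and the count of called members was 0 throughout. The fit with a replicate block called 0 members, with a median of -0.017 in Z on against Z off, and changed no call of a member. Over all probe sets the calls went from 16 to 6 in Z off against M off and from 20 to 12 between the lines under it, and to 51 and 110 with an intensity trend and robust variances. Same-numbered deviations had r between -0.083 and 0.161 (median 0.017), and those of other numbers between -0.183 and 0.157 (median -0.011). Between arrays numbered 3 the r ran from 0.008 to 0.161, and 6 of 12 arrays correlated best with an array of their own number. Whether arrays of a number were handled together cannot be told from the titles and was not tested.

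Single members moved at low and at high signal. Without 1 array, Cox6a2 ranged from -0.10 to 1.21 in the interaction, from -0.088 to 1.23 in Z on against M on and from -0.036 to 0.62 between the lines, each lowest without M on 1 and highest without M on 3. Ndufc2 ranged from 0.22 to 1.06 in the interaction and Ndufs8 from 0.18 to 0.65 in M on against M off. As the mean of its probe sets Atp5g2 turned to -0.76 between the lines. Without 1 array, Ndufs5 ranged from -3.46 to -3.19 in Z on against Z off, from -1.84 to -0.49 in M on against M off and from 0.64 to 1.83 in Z off against M off. The alternatives with 50 added and with M off 2 as the only M off array were chosen after the data were seen. The latter leaves 1 array in M off, which is assumed to vary like the other groups, so its 0 calls say nothing of stability. In it Ndufs5 was -1.91 in M on against M off and Cox7a1 was -0.60. Signals near 0 limit what can be said of Cox4i2, Cox6b2, Cox7a1, Cox7c and Cox8b.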
